A study of Mus musculus with 6 samples.

Results

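The nuclear receptor superfamily was examined at 45 genes, named member by member, among 21887 protein-coding genes of the annotation. All 45 were found in the gene table of mouse build GRCm38.p6, the assembly that mm10 names. The measurement was chromatin immunoprecipitation followed by sequencing (ChIP-seq) of Flag-tagged OTUD3, a deubiquitinase, in epididymal adipose tissue of mice. All samples came from mice injected intraperitoneally with AAV2-Otud3-Flag, an adeno-associated virus of serotype 2 carrying the tagged gene, with tissue taken 4 weeks later. The strain, age and sex of the mice, the promoter that drives the transgene and the number of animals are not given in the labels. The Flag group had 3 libraries, precipitated with the Flag antibody of CST and numbered 1, 3 and 4, and the input group had 3 libraries with no antibody and the same numbers. Peak lists came from the Flag libraries, and the inputs were not analysed here. No untagged or uninjected group is among the samples, so every library carries the same transgene. The labels call the source adipocyte and the protocol names whole tissue, which holds other cell types too. Binding data carry no expression values, so the tissue could not be checked against its marker genes. Nothing says that the libraries came from separate animals, so the spread between them may be technical, and with 1 group no test between conditions was possible.

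Nuclear receptors are transcription factors with a zinc-finger domain that binds DNA and, in most members, a pocket that binds a lipophilic ligand. Retinoid X receptors (RXR) pair with the receptors for retinoic acid, thyroid hormone, vitamin D, fatty acids, oxysterols and bile acids, while steroid receptors bind DNA as homodimers. In adipose tissue PPARγ drives adipocyte differentiation, and the glucocorticoid receptor, liver X receptors and thyroid hormone receptors act on lipid storage and breakdown. The series title links OTUD3 to transcription factors, and OTUD3 is known as a deubiquitinase that stabilises PPARδ. The comparisons made address whether tagged OTUD3 was enriched on the genes that encode these receptors, which is a separate matter from binding of OTUD3 to the receptor proteins or to their target genes.

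The lists held 11871, 6531 and 13496 distinct intervals in replicates 1, 3 and 4, each reduced to 1 summit, the position with the highest signal. The fold enrichment is the signal at the summit over the local background, as the authors' peak caller gave it. Its values match this ratio with 1 added to both counts, so a fold is lower than the plain ratio. The median fold of the lists was 3.20, 3.00 and 3.02. The protocol mentions paired-end as well as single-end reads and does not settle which was used, so the counts called fragments here may be reads. The median summit rested on 4, 6 and 5 fragments, solved from the fold and p-value, and the smallest local background behind any peak came to 0.407, 1.17 and 0.839 fragments. Replicate 1 thus had the lowest floor of background and the fewest fragments under a peak, and replicate 3 the highest of both. A peak of 3 fragments has an exact 95% Poisson interval of 0.619 to 8.77 fragments and one of 8 fragments an interval of 3.45 to 15.8, which cover counting error only. Only 40, 26 and 67 intervals reached a q of at most 0.05 (the caller's adjusted p), and 0 of these lay on a receptor gene.

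Summits of tagged OTUD3 lay on all but 10 of the 45 receptor genes in at least 1 list. A gene was counted as hit when a summit fell inside it or within 5 kb of it, which was the case for 25 members in replicate 1, 13 in replicate 3 and 18 in replicate 4 (mean 18.7 ± 6.03 SD, n = 3). The same rule was met by 25.2%, 15.8% and 23.8% of all protein-coding genes, against 55.6%, 28.9% and 40.0% of the members. Hits in at least 2 lists covered 15 members, or 33.3%, against 16.2% of all genes, and hits in all 3 lists covered 6 members, or 13.3%, against 4.4%. The 6 were Rarb, Thrb, Rora, Esr1, Nr4a1 and Nr5a2. With 1 list left out, the members hit in both remaining lists were 6 without replicate 1, 11 without replicate 3 and 10 without replicate 4. The share of all genes hit in these pairs of lists was not computed. The 10 members hit in no list were Ppard, Nr1h3, Nr1i2, Nr1i3, Hnf4g, Nr2f1, Esrra, Pgr, Nr5a1 and Nr0b2, or 22.2% against 55.8% of all genes.

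**Figure D1:**
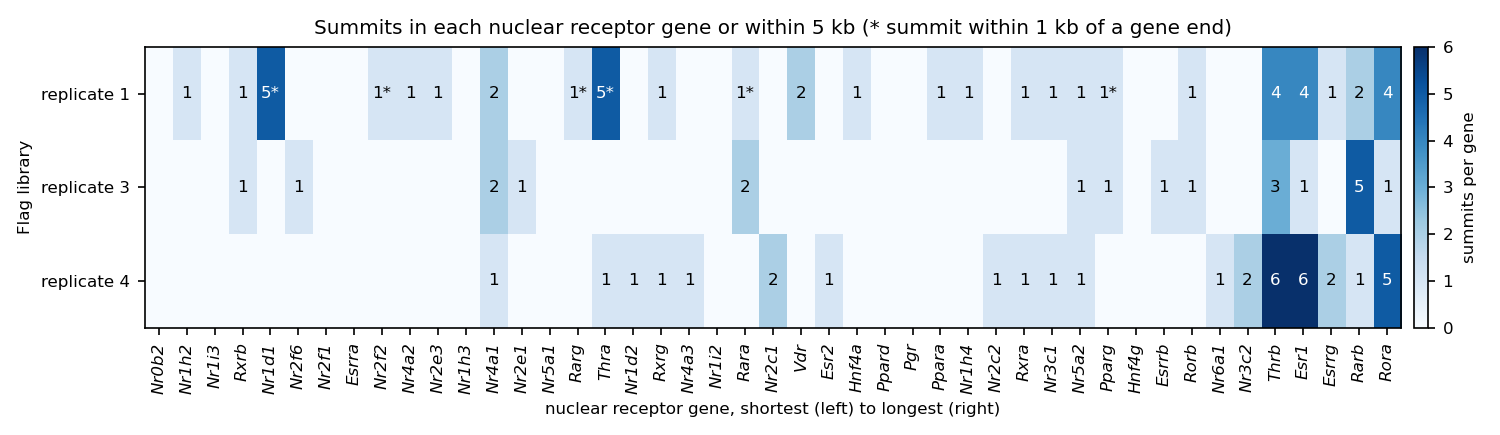
Number of summits in each nuclear receptor gene or within 5 kb of it, with the 3 Flag libraries as rows and the 45 genes as columns from the shortest, Nr0b2 at 3.31 kb, to the longest, Rora at 735 kb; empty cells are 0 and an asterisk marks a summit within 1 kb of a gene end. Counts of 4 or more fall on Thra and Nr1d1 in replicate 1 and otherwise on the longest genes at the right, and the 6 asterisks all stand in the row of replicate 1.

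Set beside genes of like length, the members were hit about as often in replicates 3 and 4 and more often in replicate 1. The members had a median length of 49.7 kb, against 17.2 kb for all protein-coding genes, and a longer gene has more room for a summit. For each member the 200 genes nearest in length were taken, and their shares hit were added over the 45 members. These sums were 17.2, 12.1 and 17.8 genes in replicates 1, 3 and 4, so the members' 25, 13 and 18 exceeded them by 7.85, 0.915 and 0.240 genes (mean excess 3.00 ± 4.21 SD, n = 3). The excess was smaller than the spread between libraries, and nearly all of it came from replicate 1. Over the 3 lists together, the like-length sum was 5.27 genes for hits in all lists and 13.95 genes for hits in at least 2, beside 6 and 15 members. For hits in no list it was 17.2 genes, beside 10 members.

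Summit density was computed over the merged windows of the members, which cover 5.74 Mb. These held 40, 21 and 35 distinct summits in replicates 1, 3 and 4, or 6.97, 3.66 and 6.098 per Mb (mean 5.58 ± 1.72 SD, n = 3). The merged windows of all protein-coding genes held 6.02, 3.39 and 6.26 per Mb (mean 5.23 ± 1.59). Both densities come from the same lists, so they are compared within each library. The members were above all genes in replicates 1 and 3 and below them in replicate 4, so the direction was not the same in every list. The 6 members of 300 kb or more make up 58.7% of the members' summed length and held 15, 10 and 22 of the summits. Their 4.73, 3.15 and 6.93 per Mb were above the 3.38, 2.22 and 4.76 per Mb of all 557 genes of that length in every list. This was not a trait of all 6. Over the 3 lists, Thrb and Esr1 had 13 and 11 summits, beside like-length means of 4.785 and 5.01. Rarb and Rora had 8 and 10 beside 6.63 and 7.16. Esrrg and Nr3c2 had 3 and 2 beside 6.24 and 4.565. The 39 shorter members were above all shorter genes in replicate 1 (9.74 against 7.01 per Mb) and replicate 3 (4.29 against 3.83), and below them in replicate 4 (5.07 against 6.82).

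**Figure D2:**
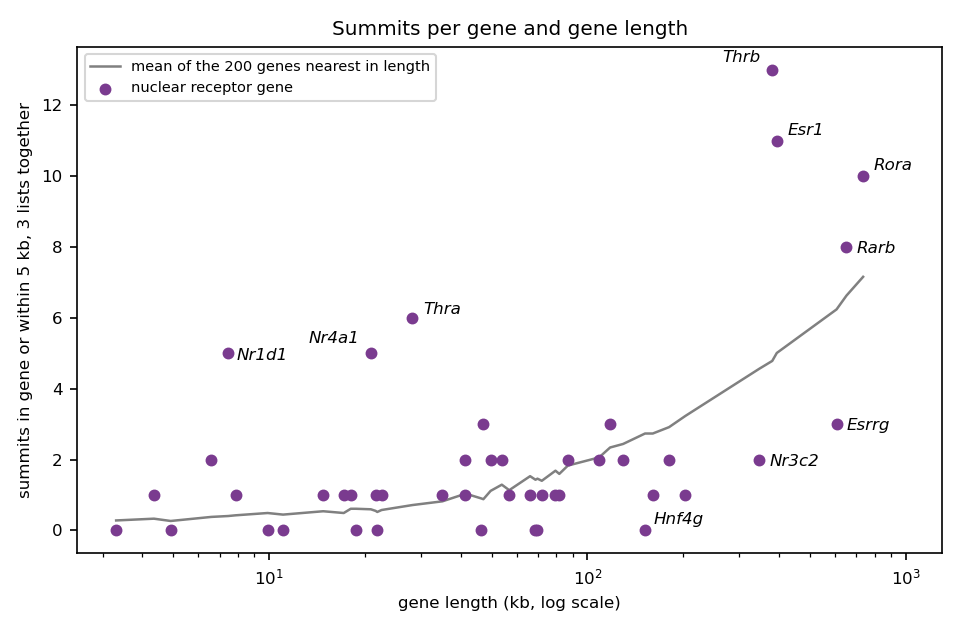
Summits in each nuclear receptor gene or within 5 kb of it, summed over the 3 lists, against gene length in kb on a log scale; each point is 1 member and the line joins the mean of the 200 genes nearest in length to each member. Nr1d1, Nr4a1 and Thra stand at 5, 5 and 6 summits among the shorter genes, Thrb and Esr1 at 13 and 11 among the long ones, and Esrrg, Nr3c2 and Hnf4g lie below the line at 3, 2 and 0.

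Grouped by role, 3 of the 8 groups had more genes hit than like-length genes would give in every list. The estrogen-related receptors had fewer in every list, and the other groups went both ways. Of the retinoid and thyroid hormone receptors with their RXR partners, all 8 genes were hit in replicate 1, 4 in replicate 3 and 5 in replicate 4, beside like-length sums of 3.28, 2.32 and 3.31 genes. The clock receptors had 3, 2 and 2 of 4 genes hit, beside 1.92, 1.49 and 1.85, and the NR4A receptors had 2, 1 and 2 of 3, beside 0.815, 0.420 and 0.620. In replicate 1 the clock count includes Nr1d1, whose only 5 summits are also counted for Thra in the retinoid and thyroid group. The counts of these groups are thus not independent in that list. The lipid and xenobiotic sensors had 5 of 9 in replicate 1, 1 in replicate 3 and 0 in replicate 4, beside 2.83, 1.83 and 3.03. The steroid receptors had 2 of 5 in replicate 1, 1 in replicate 3 and 4 in replicate 4, beside 2.66, 1.97 and 3.07. The estrogen-related receptors had 1, 1 and 1 of 3, beside 1.565, 1.27 and 1.635. The NR5, NR6 and NR0 genes had 1, 1 and 2 of 4, beside 1.445, 1.1 and 1.5. With 3 lists and at most 9 genes a group, these counts are a description, and no difference between groups was tested.

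**Figure D3:**
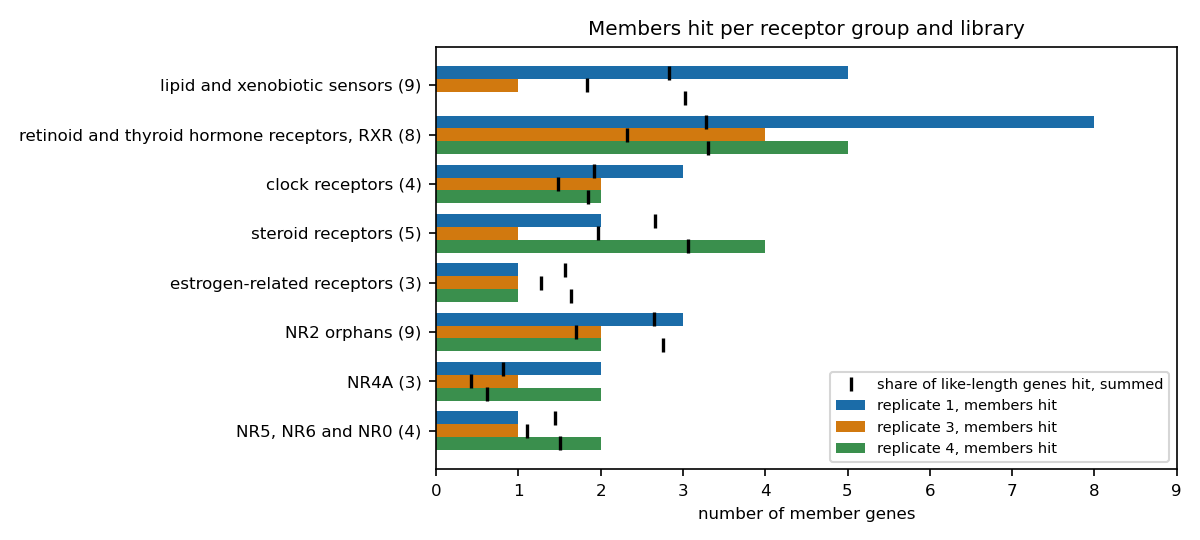
Number of member genes hit in each receptor group (bars, 1 for each Flag library, group size in brackets) and the summed share of like-length genes hit by the same rule (black ticks). The retinoid, thyroid and RXR group (8, 4 and 5 of 8 genes), the clock receptors (3, 2 and 2 of 4) and the NR4A receptors (2, 1 and 2 of 3) exceed their ticks in all 3 libraries, and the lipid and xenobiotic sensors have no bar for replicate 4. In replicate 1, Thra of the retinoid and thyroid group and Nr1d1 of the clock receptors are counted on the same 5 summits.

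Of all members, a thyroid hormone receptor gene carried the most summits. Thrb, the gene of thyroid hormone receptor β, spans 381 kb on chromosome 14 from 17659225 to 18040097 and had 4 summits in replicate 1, 3 in replicate 3 and 6 in replicate 4. Its 13 summits were the highest total of any member, and 5 of the 200 genes nearest in length had as many or more. It also held the 1 place on any member where peaks of different lists overlapped. There the peak of replicate 3 at chr14:17985456-17985859 (fold 2.76 from 5 fragments) overlapped that of replicate 4 at chr14:17985739-17986016 (fold 3.15 from 5 fragments) by 121 bp, with summits 226 bp apart. Both had a high q, 1.00 and 0.875. By the same rule 0.475% of all genes held such a site, and the like-length sum over the members was 0.255 genes. Replicate 1 had no peak there. Its summit nearest to the site was at position 18006751, which is 25.1 kb downstream of the second listed start of the gene. The site lies inside the gene, 3.99 and 4.21 kb downstream of the second of its 2 listed RefSeq starts, at position 17981644.

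The 250 bases before that start are shown because they are the promoter nearest to the 1 shared site (GRCm38.p6, chr14:17981394-17981643, plus strand, RefSeq). Capitals mark the AGAACA letters of a glucocorticoid receptor half-site on either strand, at 23 and 7 bases before the start. The stretch holds 2 CpG dinucleotides and 44.0% G and C.
Thrb: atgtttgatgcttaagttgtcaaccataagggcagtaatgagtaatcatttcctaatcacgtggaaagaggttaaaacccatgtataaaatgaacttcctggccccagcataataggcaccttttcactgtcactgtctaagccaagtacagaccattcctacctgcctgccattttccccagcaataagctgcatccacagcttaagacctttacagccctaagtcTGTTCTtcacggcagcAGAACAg

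Thra, the gene of thyroid hormone receptor α, lies on chromosome 11 from 98740776 to 98769006 and overlaps the neighbouring Nr1d1, which encodes the clock repressor REV-ERBα, at 98767932 to 98775377. Replicate 1 had 5 summits there within 6.67 kb, all of which fall in the 5 kb windows of both genes and are counted for each. Their folds were 4.27, 2.84, 3.55, 2.53 and 2.53 from left to right, from 3 to 5 fragments each, with q from 0.342 to 0.992. Replicate 4 had 1 summit at Thra, 4.44 kb to the left of this cluster, with a fold of 2.76, and the nearest summit of replicate 3 lay 8 kb from Nr1d1 and 14.4 kb from Thra. None of the 200 genes nearest in length reached the total of 6 at Thra or of 5 at Nr1d1. In replicate 1, 0.429% of all genes had 5 or more summits, and 7 of 14381 genes under 30 kb did, Thra and Nr1d1 among them. The most summits in any 10 kb of that list was 6. Windows of 10 kb with 5 summits, which may overlap each other, numbered 9, 3 and 12 in replicates 1, 3 and 4, so such clusters occurred in every list. Each peak of the cluster is weak by itself, and no peak of another list overlapped it.

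The same 3 receptor types sit side by side at another place of the genome, a comparison chosen after the values were seen. Thra, Nr1d1 and Rara lie within 0.234 Mb of chromosome 11, and their counterparts Rarb, Thrb and Nr1d2 lie within 1.81 Mb of chromosome 14. The chromosome 11 genes held 6, 2 and 1 distinct summits in replicates 1, 3 and 4, and the chromosome 14 genes held 6, 8 and 8. Together they had 31 of 96 distinct summits of all members, or 32.3%. The means of like-length genes, summed over the 3 genes of each place, came to 2 summits for chromosome 11 and 12.2 for chromosome 14, beside 9 and 22.

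**Figure D4:**
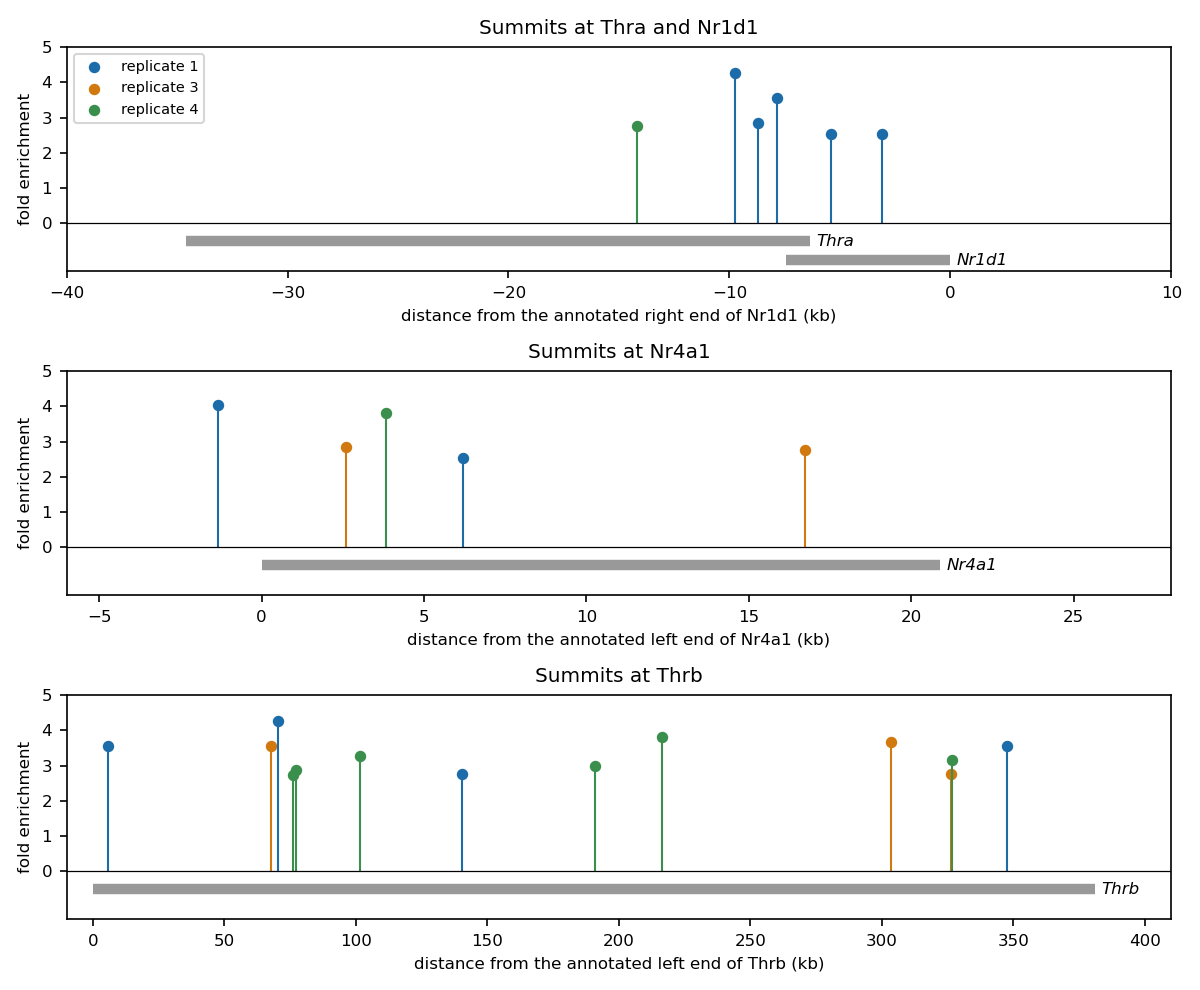
Summits at Thra and Nr1d1 (top), Nr4a1 (middle) and Thrb (bottom), with the fold enrichment of each summit on the vertical axis, the distance in kb from an annotated gene end on the horizontal axis, colours for the 3 Flag libraries and grey bars for the annotated genes. The 5 summits of replicate 1 at Thra and Nr1d1 lie within 6.67 kb, those of the 3 libraries at Nr4a1 lie at different positions, and at Thrb the only overlapping pair is that of replicates 3 and 4 toward the right of the gene.

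The retinoic acid receptor genes were hit in 3, 2 and 1 of the libraries' lists for Rarb, Rara and Rarg. Rarb spans 651 kb on chromosome 14 from 16430839 to 17082331 and had 2, 5 and 1 summits in replicates 1, 3 and 4, and 74 of its 200 like-length genes had a total of 8 or more. Its peak at chr14:16455932-16456270 in replicate 1 had the highest fold of any member peak, 4.98 from 6 fragments, and the lowest q, 0.0977. That fold stands at the 99.4th percentile of its list. Rara, on chromosome 11 from 98927800 to 98974942, had 1, 2 and 0 summits, and 18 of the 200 genes nearest in length had a total of 3 or more. A summit of replicate 3 lay 445 bp downstream of the last of its 4 listed starts, with a fold of 3.07 from 6 fragments (q = 0.950). Rarg, on chromosome 15 from 102234938 to 102257522, had 1 summit, in replicate 1, 319 bp downstream of the listed start at position 102257522. The peak, chr15:102257083-102257339, had a fold of 3.36 from 4 fragments (q = 0.651).

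The RXR genes had 1 summit a list where they were hit. Rxra, RXRα and the main partner in adipocytes, had a summit 2.52 kb upstream of the gene in replicate 1 (fold 3.84 from 5 fragments) and 1 inside the gene in replicate 4 (fold 2.47 from 5 fragments), 8.05 kb apart. Rxrg, the RXR of muscle and brain, was hit in the same libraries, with folds of 4.02 and 2.47. Rxrb, a gene of 6.59 kb, was hit in replicates 1 and 3 with folds of 3.36 and 2.48. The second lay 4.97 kb past the gene and inside the collagen gene Col11a2, just within the 5 kb limit, so its assignment to Rxrb is uncertain. A total of 2 or more was found in 103 of the 200 genes nearest in length to Rxra, 57 of those nearest to Rxrg and 9 of those nearest to Rxrb.

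Among the fatty acid receptors, the adipogenic regulator gene Pparg was hit in replicates 1 and 3. Its summit in replicate 1 lay 816 bp past the 3′ end of the gene (chr6:115491046-115491290, fold 3.34 from 5 fragments, q = 0.651). That of replicate 3 lay inside it, 7.45 kb from the nearest listed start (chr6:115414418-115414788, fold 2.99 from 6 fragments, q = 0.950). The positions differ, and replicate 4 had no summit within 21.0 kb of the gene. With 129.5 kb of length, a total of 2 summits is the median of its like-length genes. Ppara, the receptor that drives fatty acid oxidation, had a single summit in replicate 1, 3.13 kb past the gene and inside the neighbour Cdpf1 (fold 2.53 from 3 fragments). Ppard, whose product OTUD3 is known to stabilise, had 0 summits in all 3 lists. Its nearest summits lay 52.9, 14.8 and 8.56 kb away in replicates 1, 3 and 4, and 59 of 200 like-length genes were likewise hit in no list.

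The sterol, bile acid, vitamin D and xenobiotic receptors were hit in replicate 1 alone or not at all. Nr1h3, the gene of the liver X receptor LXRα, had no summit within 28.4 kb in any list. Nr1h2, the gene of LXRβ, had 1 summit with a fold of 2.49 from 3 fragments, 1033 bp downstream of its start and thus just past the 1 kb limit for starts. Nr1h4, the bile acid receptor FXR, had 1 with a fold of 4.14 from 5 fragments, and the vitamin D receptor gene Vdr had 2, with folds of 3.55 and 3.16. The xenobiotic receptor genes Nr1i2 (PXR) and Nr1i3 (CAR), which act mainly in liver, had none. Replicate 4, the list with the most intervals, had 0 hits in the 9 genes of the group, PPAR genes included, and its nearest were at 7.81 kb from Nr1i2 and 8.56 kb from Ppard.

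The other clock receptor genes, which take part in circadian rhythm, carried summits in 1 to 3 lists each. Rora, which encodes RORα, an activator that competes with the REV-ERB repressors, is the longest member at 735 kb. It had 4, 1 and 5 summits in replicates 1, 3 and 4, and 52 of its 200 like-length genes had 10 or more. The highest fold among them was 3.95 from 8 fragments, in replicate 3. Rorb had 1 summit each in replicates 1 and 3, and Nr1d2, the gene of REV-ERBβ, had 1 in replicate 4, 1.29 kb past the gene (fold 3.64 from 6 fragments).

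Of the steroid receptor genes, Esr1, which encodes estrogen receptor α, held 11 summits over 394 kb of chromosome 10, with 4, 1 and 6 in replicates 1, 3 and 4. A total that high was found in 9 of its 200 like-length genes. Its closest pair from different lists, in replicates 1 and 4, had summits 750 bp apart and did not overlap. Nr3c1, the glucocorticoid receptor gene, is 109 kb long on chromosome 18 and had 1 summit in replicate 1 (fold 2.79 from 4 fragments) and 1 in replicate 4 (fold 3.09 from 5 fragments). That total is the median of its like-length genes. Nr3c2, the mineralocorticoid receptor gene, had 2 summits in replicate 4 over 347 kb, and 164 of 200 like-length genes had as many or more. Esr2, the gene of estrogen receptor β, had 1 in replicate 4, and Pgr, the progesterone receptor gene, had none within 140.5 kb.

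The estrogen-related receptors, orphan receptors that act on oxidative metabolism, carried few summits. Esrrg, of 606 kb, had 1, 0 and 2 summits in replicates 1, 3 and 4, and 176 of 200 like-length genes had 3 or more. Esrrb, of 161 kb, had 1 in replicate 3, and 173 of 200 like-length genes had as many or more over the 3 lists. Esrra, of 11.1 kb, had none, and 136 of 200 like-length genes were likewise hit in no list.

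Among members under 30 kb, Nr4a1 was the only one hit in every list. It encodes NUR77, an orphan receptor that is induced early by stimuli such as cyclic AMP, and lies on chromosome 15 from 101253902 to 101274795. It had 2 summits in replicate 1, 2 in replicate 3 and 1 in replicate 4, all within 18.1 kb. Their folds were 4.04 and 2.53 in replicate 1, 2.84 and 2.76 in replicate 3, and 3.81 in replicate 4, from 3 to 6 fragments, with q from 0.342 to 1.00. No pair overlapped, and the closest summits of different lists lay 1.23 kb apart, in replicates 3 and 4. None of its 200 like-length genes had 5 summits, and 5 of them were hit in all 3 lists. Of 14381 genes under 30 kb, 61 were hit in all 3 lists, or 0.424%, and 22 had 5 or more summits. The nearest of these summits to the single listed start lay 3.79 kb downstream. Of its relatives, Nr4a2 had 1 summit in replicate 1 (fold 2.53 from 3 fragments), and Nr4a3 had 1 in replicate 4 (fold 3.95 from 7 fragments).

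Among the remaining orphan receptors, the NR2 genes had 3, 2 and 2 of 9 members hit in replicates 1, 3 and 4, beside like-length sums of 2.65, 1.70 and 2.76. Nr2c1, the testicular receptor TR2, had 2 summits in replicate 4, 1 of them with the third highest fold of all member peaks, 4.27 from 7 fragments (q = 0.262). Nr2f2, the gene of COUP-TFII, which acts in adipogenesis and in vein formation, had a summit in replicate 1 at 18 bp past its 3′ end (fold 3.32 from 4 fragments). Hnf4a and Nr2e3 had 1 summit each in replicate 1, Nr2e1 and Nr2f6 1 each in replicate 3 and Nr2c2 1 in replicate 4, with folds from 2.66 to 3.67. Nr2f1 had none. Hnf4g, of 152 kb, was the longest member with no summit, and 22 of its 200 like-length genes were also hit in no list. Nr5a2, which encodes the liver receptor homologue LRH-1, had 1 summit in each list. Of its 200 like-length genes, 86 had a total of 3 or more and 31 were hit in all 3 lists. In replicate 3 it lay 192 bp downstream of the second of its 2 listed starts (chr1:136953315-136953565, fold 3.55 from 7 fragments, q = 0.745). The summit of replicate 4 was 35.6 kb from a start, with a fold of 4.31 from 8 fragments (q = 0.215), and that of replicate 1 lay 4.39 kb upstream of the gene with a fold of 2.79. Nr6a1 had 1 summit in replicate 4, and Nr5a1 and Nr0b2, an atypical receptor without a DNA-binding domain, had none.

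Summits close to the gene ends were found in replicate 1 only. Within 1 kb of either annotated end there were 6 members in replicate 1, 0 in replicate 3 and 0 in replicate 4, while 3.49%, 1.33% and 1.97% of all genes met the rule. The like-length sums were 1.45, 0.670 and 1.00 genes. The 6 were Pparg, Rara, Rarg, Thra, Nr1d1 and Nr2f2, with folds of 2.53 to 3.55 from 3 to 5 fragments and q from 0.651 to 0.992. Thra and Nr1d1 overlap, and their end summits belong to the same cluster described above. With these genes as 1 locus the count was 5. Only Rara and Rarg had the summit at the start side of the annotated gene, the former 973 bp before it. At Pparg, Nr1d1 and Nr2f2 it was at the 3′ end, and for Thra the strand is not in the table used. The share of all genes hit at an end was also highest in replicate 1, and its part in this count was not tested. With a window of 3 kb the counts were 10, 1 and 3. The share of all genes was not computed for this window, so these counts show no excess.

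Start sites were also taken from the RefSeq promoter table, which lists 62 starts for 41 of the members. A summit lay within 1 kb of a listed start for 1, 2 and 0 of these 41 in replicates 1, 3 and 4, and for 2.38%, 0.686% and 0.909% of the 17492 protein-coding genes in that table. The members were Rarg in replicate 1, and Rara and Nr5a2 in replicate 3. Rara has 4 listed starts and Nr5a2 has 2, and a gene with more starts has more chances to meet this rule. The number of starts was not matched between the members and all genes. No peak interval reached into any of the 62 windows from 250 bases before to 50 after a start. The 250 bases before these 3 starts are shown as the promoters closest to a member peak, with each summit on the transcribed side (GRCm38.p6, RefSeq). The stretches are chr15:102257523-102257772 on the minus strand for Rarg, chr11:98964622-98964871 on the plus strand for Rara and chr1:136953631-136953880 on the minus strand for Nr5a2. Capitals mark a match to AGGTCA or AGAACA on either strand, and the Rara stretch has none.
Rarg: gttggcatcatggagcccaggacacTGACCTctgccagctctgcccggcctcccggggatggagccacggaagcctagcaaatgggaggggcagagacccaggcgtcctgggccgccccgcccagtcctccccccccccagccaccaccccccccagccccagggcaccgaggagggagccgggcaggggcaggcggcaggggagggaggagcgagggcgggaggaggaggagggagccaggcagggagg
Rara: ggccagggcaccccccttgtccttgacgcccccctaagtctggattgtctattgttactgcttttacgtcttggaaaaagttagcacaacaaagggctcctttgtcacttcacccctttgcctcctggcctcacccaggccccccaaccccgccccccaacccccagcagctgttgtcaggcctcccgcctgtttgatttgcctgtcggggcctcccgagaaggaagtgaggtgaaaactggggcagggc
Nr5a2: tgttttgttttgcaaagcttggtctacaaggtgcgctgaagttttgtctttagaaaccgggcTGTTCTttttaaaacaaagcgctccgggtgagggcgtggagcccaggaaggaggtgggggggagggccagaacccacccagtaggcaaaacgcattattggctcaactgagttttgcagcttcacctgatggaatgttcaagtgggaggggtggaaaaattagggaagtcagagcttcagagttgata

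The Rarg promoter holds 74.4% G and C with 11 CpG dinucleotides and a half-site of nuclear receptors, AGGTCA, at 225 bases before the start. The Nr5a2 stretch holds 49.6% G and C and a glucocorticoid half-site at 188 bases before the start. Over all 62 promoters of the members, AGGTCA occurred in 10, or 16.1%, against 12.8% of 21263 promoters of protein-coding genes, counting both strands and the 250 bases before the start. Its direct repeat with 1 base between, AGGTCANAGGTCA, occurred in 0 of 62 and 0.0423% of all, and that with 4 bases between, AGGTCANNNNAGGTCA, in 0 of 62 and 0 of all. The letters AGAACA occurred in 4 of 62 (6.45%) against 13.7%, and the AP-1 site TGACTCA in 2 (3.23%) against 4.06%. These matches describe the letters alone and do not show a bound factor, and promoters of 1 gene are not independent. Genome sequence under the peaks themselves was not used here.

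Peaks on the receptor genes were like the rest of their lists in fold. The members' summits had a median fold of 3.24, 2.84 and 2.99 in replicates 1, 3 and 4, beside 3.20, 3.00 and 3.02 for the lists. Of 96 distinct summits, 44 lay above the median fold of their list, or 45.8%, and 24 lay above its 75th percentile. The folds ran from 2.28 to 4.98 and the fragments from 3 to 8. No member peak had a q at or below 0.05 or a fold of 5 or more, and the lists had 0.261%, 0.138% and 0.126% of intervals at such a fold. Inside the receptor genes lay 85 of the summits, with 4 upstream and 7 downstream of the genes, and 3 of these 11 flanking summits, at Ppara, Rarb and Rxrb, fell inside a neighbouring gene. Summits of different lists on the same member came within 10 kb of each other at 8 members, among them the long genes Rarb, Thrb, Rora and Esr1. This was not counted over all genes or genes of like length, so the figure shows no excess and no agreement between libraries.

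**Figure D5:**
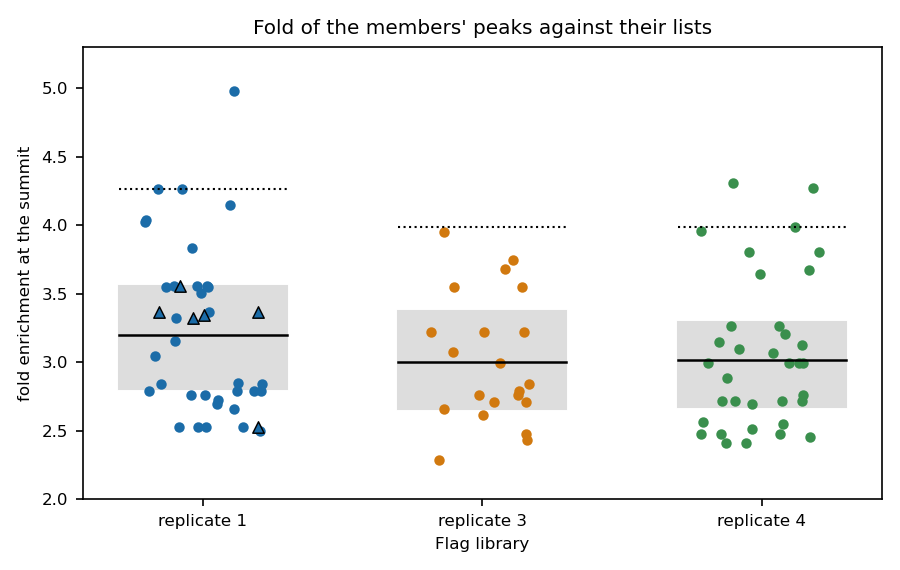
Fold enrichment at the summit of each peak on a nuclear receptor gene, by Flag library; points are peaks, triangles are peaks within 1 kb of a gene end, grey boxes span the 25th to 75th percentile of all intervals of the list, solid lines its median and dotted lines its 95th percentile. The members' peaks spread over the range of their lists, and the highest, 4.98, is that of Rarb in replicate 1.

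Genes that work with the receptors were counted by the same rule, in lists drawn up with earlier results of these data known. Coregulators, the proteins that receptors recruit to activate or repress transcription, were hit at 12 of 18 genes in replicate 1, 9 in replicate 3 and 11 in replicate 4, beside like-length sums of 8.61, 6.38 and 9.37 genes. Ncoa1, the first steroid receptor coactivator, had 3, 2 and 1 summits, and Ppargc1a, the gene of PGC-1α, had 4, 1 and 3 over 662 kb. These were the 2 coregulators hit in all lists, beside a like-length sum of 2.83. Nrip1 and Tbl1x were hit in none.

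Genes that make, break down or carry receptor ligands were hit at 9, 2 and 9 of 25 genes in replicates 1, 3 and 4, beside like-length sums of 6.395, 3.865 and 6.015. Aldh1a1, a retinaldehyde dehydrogenase that makes retinoic acid, was the 1 gene hit in all lists, beside a like-length sum of 0.895. It had 1, 1 and 2 summits over 151 kb. Classic target genes of the receptors had 9, 7 and 11 of 20 hit, beside 6.455, 4.105 and 6.35. The 4 hit in all lists, beside a like-length sum of 1.07, were the fatty acid transporter gene Cd36 (3, 2 and 3 summits), the cholesterol exporter genes Abca1 (3, 3 and 1) and Abcg1 (1, 1 and 1), and the glucocorticoid target Fkbp5 (1, 2 and 3). The other targets were hit in 1 or 2 lists or, in 6 cases, in none. No gene of these 3 lists held a place where peaks of different lists overlapped. Only 0.475% of all genes held such a place, so with so few genes the absence says little.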

How the data were processed

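Per the labels, ChIP-seq of Flag-tagged OTUD3 used 75 bp reads for 3 Flag libraries and 3 inputs. The submitters' processing notes name MACS2 2.1.0, BWA 0.7.12 and fastp 0.19.11, with build mm10. The deposited lists, 1 per library and not pooled, hold values of the authors' peak caller, namely an integer score, the fold ratio over local background and the p-value and q-value as −log10. No source used here says whether input served as the control.

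Of several summits in 1 interval, that with the lowest p was kept. Fragments per summit were solved from the deposited fold and p-value, with a pseudocount of 1 and a Poisson tail, which matched within 0.001 (log10) for 100% of intervals. Genes were those of RefSeq (GRCm38.p6, 21887 protein-coding). A hit was a summit in the gene or within 5 kb, and 1 kb at gene ends was counted apart. Sites were shared at an overlap of 1 bp. Starts and promoter sequences came from the RefSeq promoter table. The counting was tested on simulated data. Python 3.11.15, numpy 2.4.6, pandas 2.3.3, scipy 1.17.1 and matplotlib 3.10.9 were used.

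With lists of 1 group only, no p was computed. The members and gene lists were chosen with earlier results of these data known. By rule, the text names members at a gene end, with a shared site, hit in all lists or in none, the 12 with the most summits, 6 adipose receptors, and pathway genes hit in all lists. The others were named after their values were seen. Alternatives were other windows, fold and q thresholds, overlap rules, numbers of like-length genes and leaving out each library.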

Additional observations from a re-analysis of the deposited data

How the results depend on the processing

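Of 124 values recomputed under other settings, 75 stayed close to those reported and 49 moved. A window of 10 kb or the gene body alone, any overlap of the peak interval, every summit row kept, fewer or more like-length genes, and Thra with Nr1d1 as 1 locus (chosen after seeing the data) moved none of the counts they touch by over 1.5 times.

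Thresholds on peak strength moved the most values. With only peaks above their list's median fold, the members hit were 15, 6 and 11 in replicates 1, 3 and 4, beside like-length sums of 10.66, 7.04 and 10.995. The distinct summits were then 20, 9 and 15, with 2 members hit in all lists, 6 in at least 2 lists and 0 shared sites. At a fold of at least 5, and likewise at a q of at most 0.05, 0 members were hit in any list, with 0 summits, 0 end hits and 0 shared sites. The like-length sums were then 0.065, 0.04 and 0.035 at that fold and 0.035, 0.06 and 0.075 at that q.

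With 3 kb as the end window, 10, 1 and 3 members were hit at an end. On the start side alone, with the 1 kb window, 2 were hit in replicate 1. Neither setting was computed over all genes, so these counts show no excess. The Thrb site was lost, leaving 0 shared sites, when summits had to lie within 100 bp or peaks to overlap by 50% of each. Leaving out 1 library in turn gave 6 to 11 members hit in all remaining lists, 6 to 11 in at least 2, and 0 to 1 shared sites. These were not set beside the share of all genes. The low figure of 6 came without replicate 1, the 11 without replicate 3, and the 0 without replicate 3 or 4. The cause of these shifts was not tested. With 3 to 8 fragments under a member peak, counting error limits what any single peak shows.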
